A study of Mus musculus with 24 samples.

Results

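The translation initiation and elongation factors described here are the genes of the mouse hippocampus arrays whose symbol begins with Eif1 to Eif6, or with Eef1 or Eef2. Genes of the eIF4E-binding proteins (Eif4ebp) and Eif2b3 do not belong to the set. By this rule 58 of the 19938 genes measured by a probe with a single gene symbol were members, each read from the probe whose mean over all arrays was highest. The rule used symbols and the mean over all groups, not any difference between groups. Eif1, Eif2s1, Eif3g, Eif4g1 and Eef1g, and Eif3j1 and Eif3j2, which share their probes, were not analysed here as members.

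Every array carried hippocampal RNA from males that were 8 to 9 weeks old, of a C57BL/6J-129sv mixed strain. The 4 groups with 6 arrays each crossed genotype with state. Mice were FoxO6 +/+ (WT) or FoxO6 -/-, labelled FoxO6 null and called mutant here; FoxO6 is a forkhead transcription factor, and the labels give the allele no tissue or promoter. Basal mice were caged alone for at least 3 days before dissection. Learning mice had been handled every day, spent 10 min in the empty arena 24 h before the task, were given a pair of identical objects to explore (10 min), and were killed 60 min later. As the labels describe the states, they differed in handling, arena, objects and housing, so the state comparison cannot tell these apart. The labels do not say whether arrays of both states were processed together; a difference in processing between the states, which would bear on every learning difference given here, was not tested. The comparisons ask what differs after the task in each genotype, what differs between the genotypes in each state, and whether the response depends on genotype.

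Protein synthesis begins when initiation factors bring the initiator tRNA, the small ribosomal subunit and the capped mRNA together. eIF2 carries the initiator tRNA, eIF2B recharges eIF2 with GTP, eIF3 binds the small subunit, and eIF4 factors recognise the cap and unwind the leader of the mRNA. eEF1A then delivers each aminoacyl-tRNA and eEF2 moves the ribosome along. In the hippocampus new protein synthesis is needed for lasting memory, and phosphorylation of eIF2 and of eEF2 are known points of its control; phosphorylation is not measured by RNA arrays.

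Values are log2 array intensities, and a difference is the learning mean minus the basal mean, or the mutant mean minus the WT mean, on that scale. The word called marks a gene whose limma p, once adjusted, was under 0.05. The number of arrays limits the precision; members had a median SD of 0.077 to 0.085 within groups. Foxo6 itself lay between 6.62 and 7.30 on WT arrays and between 5.98 and 6.59 on mutant arrays, lower in the mutant in both states. Hippocampal neuron markers averaged 9.49 to 9.78 on every array. The mean of 15 choroid plexus markers ranged from 5.97 to 6.93 on WT basal, 6.47 to 6.97 on mutant basal, 6.08 to 6.31 on WT learning and 6.02 to 6.84 on mutant learning arrays. Mutant basal array 6 and mutant learning array 3 were the lowest of their group for 29 and 27 of the 58 members, and WT basal array 6 for 20; without these 3 arrays 41 members were called in WT and 38 in the mutant after learning, against 37 and 39 with all arrays.

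After the task, 24 of the 58 members were higher and 13 lower in WT mice. In the mutant 23 were higher and 16 lower. Among all genes 43.3% were called in WT and 41.3% in the mutant (25.1% higher and 18.2% lower in WT, 22.6% and 18.7% in the mutant), against 63.8% and 67.2% of the members. Among the brighter genes alone, those with a mean above the median gene's, 68.3% and 66.9% were called. Of the 53 members among them 73.6% and 71.7% were called. Members were not matched to genes of like brightness. The median difference of the members was 0.04 in WT and 0.01 in the mutant, against 0.03 and 0.03 for all genes. The median size of the difference, without its sign, was 0.21 in both genotypes for the members and 0.15 and 0.14 for all genes. Members thus moved both ways, and the groups of 6 arrays did not overlap for 19 higher and 8 lower members in WT and for 19 higher and 9 lower in the mutant (13.8% and 11.4%, and 10.9% and 11.8%, of all genes).

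**Figure D1:**
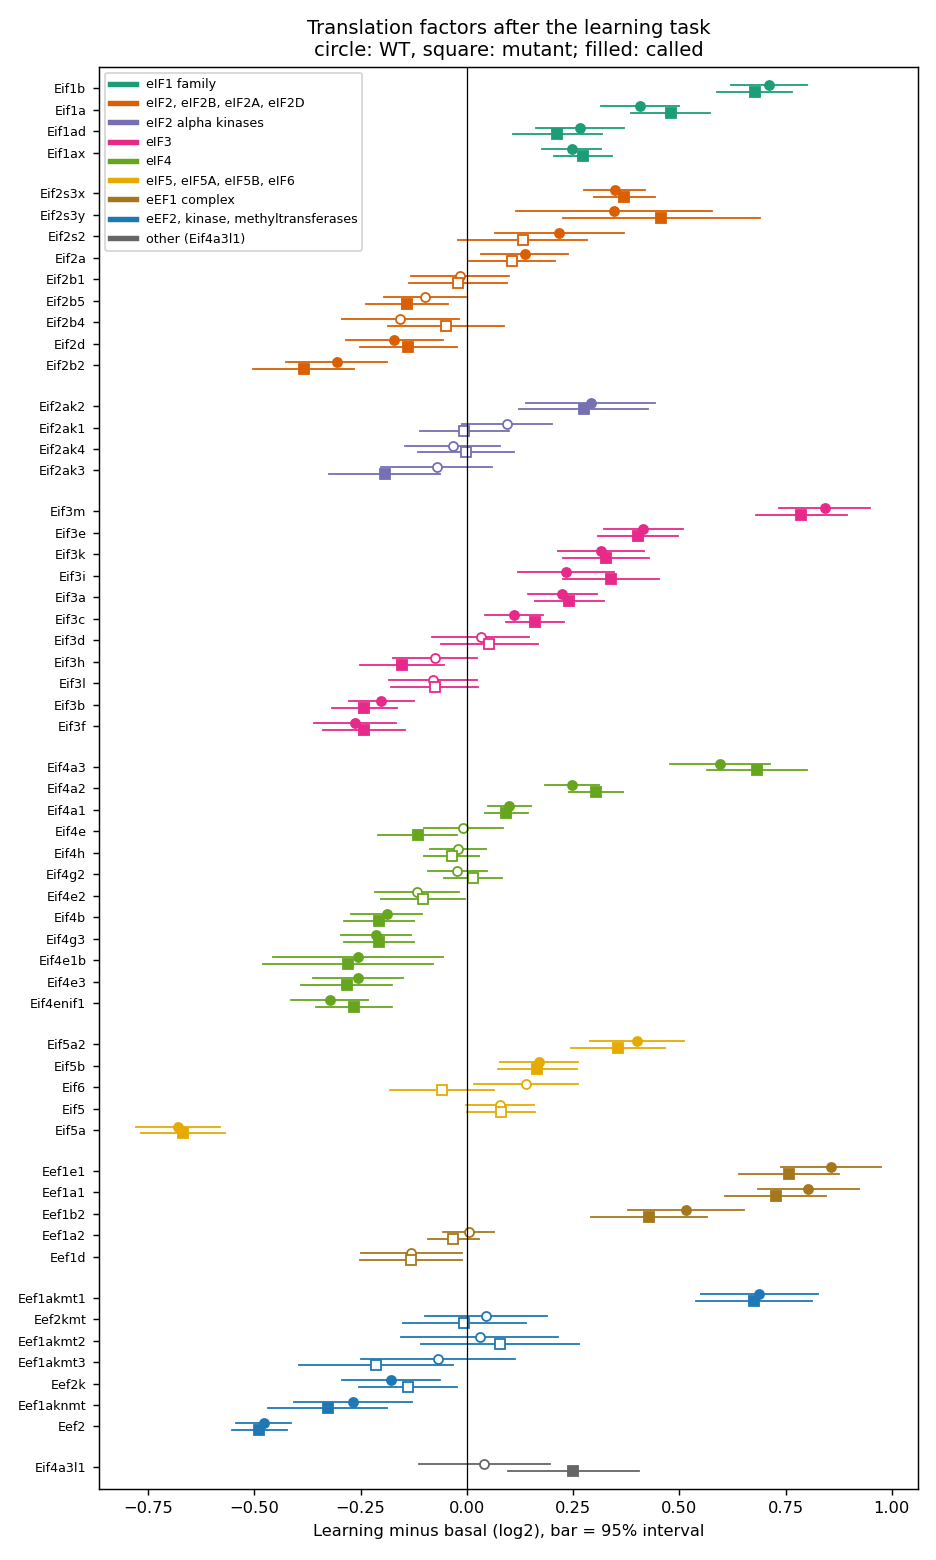
Learning minus basal difference (log2) of each of the 58 members with its 95% confidence interval, by role, for WT (circles) and mutant (squares); filled symbols passed the test at an adjusted p under 0.05. The eIF1 family lies wholly to the right of 0, from 0.21 to 0.71, while Eif5a and Eef2 lie furthest to the left, at −0.68 and −0.48 in WT.

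The group called the eIF1 family here, taken by symbol, rose in all 4 measured members in both genotypes. Of all 19938 genes 3785 were higher in both. Members of the group do not share 1 function. eIF1 itself keeps the scanning ribosome from starting at a wrong codon. Eif1b, a close copy of eIF1, stood between 10.13 and 10.40 (median 10.34) on WT basal arrays and between 10.94 and 11.10 (median 11.03) on WT learning arrays. In the mutant it stood between 10.23 and 10.37 (median 10.32) at basal and between 10.90 and 11.14 (median 11.00) after learning. All learning arrays thus lay above all basal arrays in each genotype, with a difference of 0.71 (SE 0.04, adjusted p 9.58e-14) in WT and 0.68 (adjusted p 2.22e-13) in the mutant. Eif1a, an eIF1A gene, rose by 0.41 in WT and 0.48 in the mutant. Its probe has near-identical gene copies, so its signal may be shared with them. Eif1ax, the X-linked eIF1A gene, rose by 0.25 and 0.27, and Eif1ad by 0.27 and 0.21.

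Genes of eIF2 and eIF2B went different ways. Eif2s3x, the gamma subunit of eIF2, rose by 0.35 (WT) and 0.37 (mutant), and its Y-linked copy Eif2s3y by 0.35 and 0.46, with an SD of up to 0.29 in a group. Near-identical sequence between these copies makes their separate values uncertain. Eif2s2, the beta subunit, rose by 0.22 in WT (adjusted p 0.0181), and the mutant gave 0.13 (adjusted p 0.166). The beta subunit of eIF2B, Eif2b2, fell. It stood between 8.37 and 8.61 (median 8.48) on WT basal and between 8.05 and 8.33 (median 8.15) on WT learning arrays, and in the mutant between 8.34 and 8.68 (median 8.51) and then between 7.99 and 8.20 (median 8.15). The states did not overlap in either genotype, and the difference was −0.31 (SE 0.06, adjusted p 6.62e-05) in WT and −0.38 (adjusted p 2.54e-06) in the mutant. The other eIF2B subunits gave −0.02 (Eif2b1), −0.16 (Eif2b4) and −0.10 (Eif2b5) in WT, none called. In the mutant Eif2b5, the catalytic subunit, fell by 0.14 (adjusted p 0.0164). Eif2d, which can deliver initiator tRNA without GTP, fell by 0.17 and 0.14, and Eif2a, which also binds initiator tRNA, rose by 0.14 in WT (adjusted p 0.0272) and gave 0.11 in the mutant (adjusted p 0.0902).

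Of the 4 kinases that phosphorylate eIF2 alpha, Eif2ak2 (PKR, the kinase activated by double-stranded RNA) rose by 0.29 in WT (adjusted p 0.00185) and 0.27 in the mutant. Its arrays overlapped between the states, and its mean lay below the median of every array. Eif2ak3 (PERK, the kinase of the endoplasmic reticulum) differed by −0.07 in WT (adjusted p 0.398) and fell by 0.19 in the mutant (adjusted p 0.0153). Eif2ak4 (GCN2, which senses uncharged tRNA) gave −0.03 and 0.00, and Eif2ak1 (HRI, which senses haem) gave 0.09 and −0.01, with no call.

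Among 11 measured subunits of eIF3, which holds the small ribosomal subunit open for mRNA, 6 rose in both genotypes, against 3785 of 19938 genes. Eif3m rose most among the subunits. On WT arrays it lay between 9.41 and 9.74 (median 9.50) at basal and between 10.21 and 10.50 (median 10.39) after learning. On mutant arrays it lay between 9.48 and 9.67 (median 9.56), then between 10.21 and 10.43 (median 10.36). The states were fully apart in both genotypes, by 0.84 (SE 0.05, adjusted p 1.32e-13) in WT and 0.79 (adjusted p 4.86e-13) in the mutant. Eif3e rose by 0.42 and 0.40, Eif3k by 0.32 and 0.33, Eif3i by 0.23 and 0.34, Eif3a, the largest subunit, by 0.22 and 0.24, and Eif3c by 0.11 and 0.16. In the opposite direction, Eif3b fell by 0.20 (WT) and 0.24 (mutant), and Eif3f by 0.26 and 0.24. Eif3h fell by 0.15 in the mutant and gave −0.07 in WT. Eif3d and Eif3l were not called, with differences between −0.08 and 0.05.

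**Figure D2:**
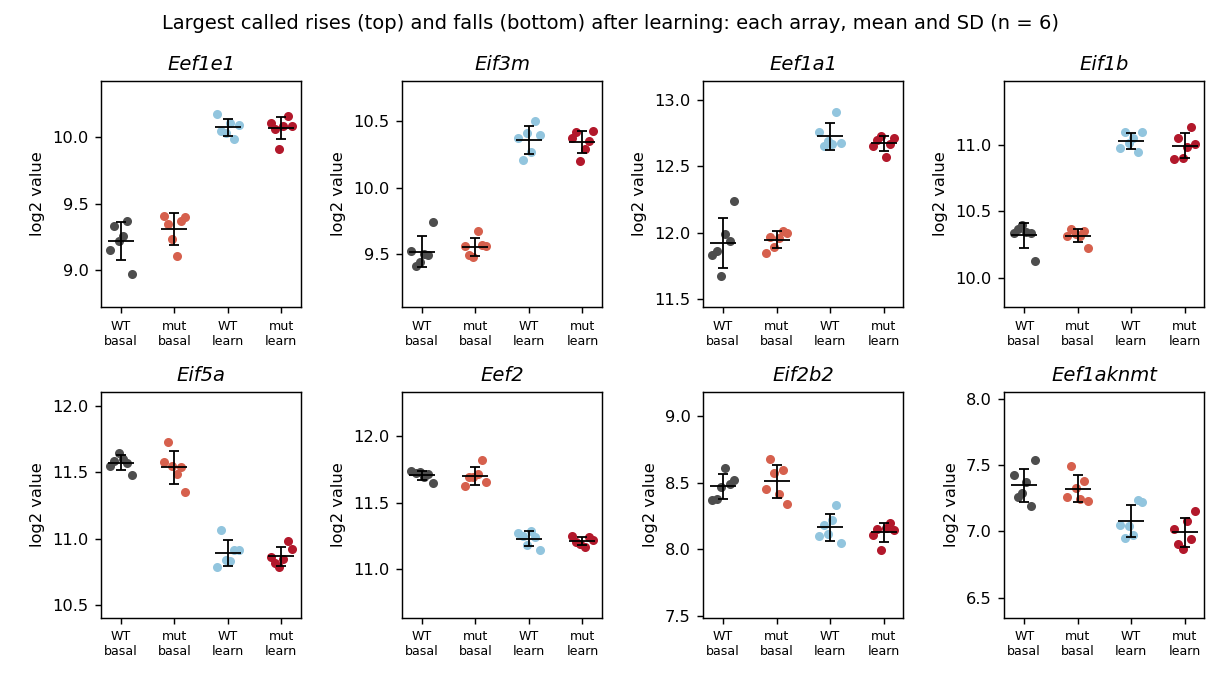
Log2 value on every array, with mean and SD (n = 6), for the 4 members with the largest called rise and the 4 with the largest called fall after learning, ranked by the larger difference of the 2 genotypes; dots are arrays of the WT and mutant groups at basal and after learning. In the top row every learning array lies above every basal array of its genotype; in the bottom row Eif5a, Eef2 and Eif2b2 lie fully below, and Eef1aknmt overlaps in WT.

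The eIF4 genes moved both ways. All 3 helicase genes rose: Eif4a1 by 0.10 in WT and 0.09 in the mutant, Eif4a2 by 0.25 and 0.30, and Eif4a3 by 0.60 and 0.68. Eif4a3 is a core part of the exon junction complex, which marks spliced mRNA, rather than of cap-dependent initiation. It lay between 7.87 and 8.17 at basal and 8.47 and 8.64 after learning in WT, with no overlap. The 2 probes shared by Eif4a3 and Eif4a3l1 gave smaller rises, 0.18 and 0.20 in WT. Eif4a1 rose little. WT arrays lay between 11.50 and 11.56 (median 11.53) at basal and between 11.59 and 11.67 (median 11.63) after learning, and mutant arrays between 11.44 and 11.54 (median 11.53), then between 11.57 and 11.64 (median 11.61). Eif4a2, the form abundant in brain, went from 11.68 to 11.86 (median 11.82) at basal up to 12.03 to 12.08 (median 12.05) after learning in WT. In the mutant it went from 11.67 to 11.80 (median 11.76) up to 11.95 to 12.12 (median 12.08). No basal array of either helicase reached a learning array of its genotype. After a second quantile normalization Eif4a1 gave 0.06 in WT (limma, adjusted p 0.0496) and 0.04 in the mutant (adjusted p 0.218), which ends the call in the mutant.

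Genes that bind or serve the cap fell or were not called with the probes used. Eif4enif1, which carries eIF4E into the nucleus, fell by 0.32 in WT and 0.27 in the mutant without overlap of the states. Its second, much dimmer probe, numbered among probes of another chromosome, gave −0.13 and −0.18 with no call. Eif4e3, an eIF4E paralog, fell by 0.26 and 0.28, and Eif4e1b, a paralog whose mean lay below the median of every array, by 0.26 (adjusted p 0.0344) and 0.28 (adjusted p 0.0213). Eif4g3, a scaffold that joins eIF4E to the helicase, fell by 0.21 in both genotypes, and Eif4b, which stimulates the helicase, by 0.19 and 0.21. Eif4e, the main cap-binding factor, gave −0.01 in WT (adjusted p 0.904) and fell by 0.12 in the mutant (adjusted p 0.0401). The Eif4e result depended on the probe, and the probes numbered on the array with those of the gene's own chromosome differed in sign. A second, dimmer probe numbered there rose by 0.22 in WT (adjusted p 0.0134) and gave 0.15 in the mutant (adjusted p 0.0988). Another probe numbered there, dimmer still (mean 6.11), gave −0.06 in WT and −0.07 in the mutant, with no call. Eif4e2, a paralog that represses, gave −0.12 and −0.10, Eif4g2, a scaffold that does not bind eIF4E, −0.02 and 0.01, and Eif4h −0.02 and −0.04, with no call.

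Eif5a had the largest fall of all members with the probes used. This factor frees ribosomes stalled at certain peptide bonds and carries hypusine, a modified lysine. It lay between 11.48 and 11.65 (median 11.58) on WT basal arrays and between 10.79 and 11.07 (median 10.88) on WT learning arrays. Mutant arrays lay between 11.35 and 11.73 (median 11.55), then between 10.79 and 10.98 (median 10.86). Every learning array was below every basal array, by 0.68 (SE 0.05, adjusted p 2.23e-12) in WT and 0.67 (adjusted p 2.86e-12) in the mutant. With the probe numbered among its own chromosome the fall was 0.38 and 0.36, less than that of Eef2 in both genotypes. Its paralog Eif5a2 rose instead, by 0.40 and 0.36. Eif5b, which joins the ribosomal subunits, rose by 0.17 and 0.17. Eif5, which triggers GTP hydrolysis by eIF2, gave 0.08 and 0.08, and Eif6, which keeps the large subunit free, gave 0.14 and −0.06; neither was called.

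The paralogs of eEF1A gave unlike values. Eef1a1, the widespread form of eEF1A, lay between 11.67 and 12.24 (median 11.90) on WT basal and between 12.65 and 12.91 (median 12.68) on WT learning arrays. On mutant arrays it lay between 11.84 and 12.01 (median 11.97), then between 12.57 and 12.73 (median 12.68). The states did not overlap, with a difference of 0.80 (95% interval 0.68 to 0.92, adjusted p 2.83e-12), or 1.75-fold, in WT and 0.73 (0.61 to 0.85) in the mutant. Eef1a2, the form of neurons and muscle, lay between 11.66 and 11.76 (median 11.71) at basal and between 11.62 and 11.80 (median 11.72) after learning in WT, and between 11.66 and 11.79 (median 11.70), then between 11.66 and 11.70 (median 11.67) in the mutant. Its states overlapped in both genotypes, and its difference was 0.00 (−0.06 to 0.06, adjusted p 0.926) in WT and −0.03 (−0.09 to 0.03) in the mutant, outside the interval of Eef1a1. The difference between the paralogs was not tested itself, and processed copies of Eef1a1 in the genome make its probe uncertain.

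Eef1b2, which recharges eEF1A with GTP, rose by 0.52 and 0.43, while Eef1d, another exchange subunit, gave −0.13 in both genotypes (adjusted p 0.0719 and 0.0725). Eef1e1 had the largest rise of all members in WT with the probes used, ahead of Eif3m, whose second probe gave more (0.87). Despite its name it is a scaffold of the complex of aminoacyl-tRNA synthetases. It stood between 8.97 and 9.37 (median 9.24) at basal and between 9.99 and 10.17 (median 10.07) after learning in WT, and between 9.11 and 9.41 (median 9.36), then between 9.91 and 10.16 (median 10.09) in the mutant. All learning arrays were higher, by 0.86 (SE 0.06, adjusted p 6.18e-13), or 1.81-fold, in WT and 0.76 in the mutant.

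**Figure D3:**
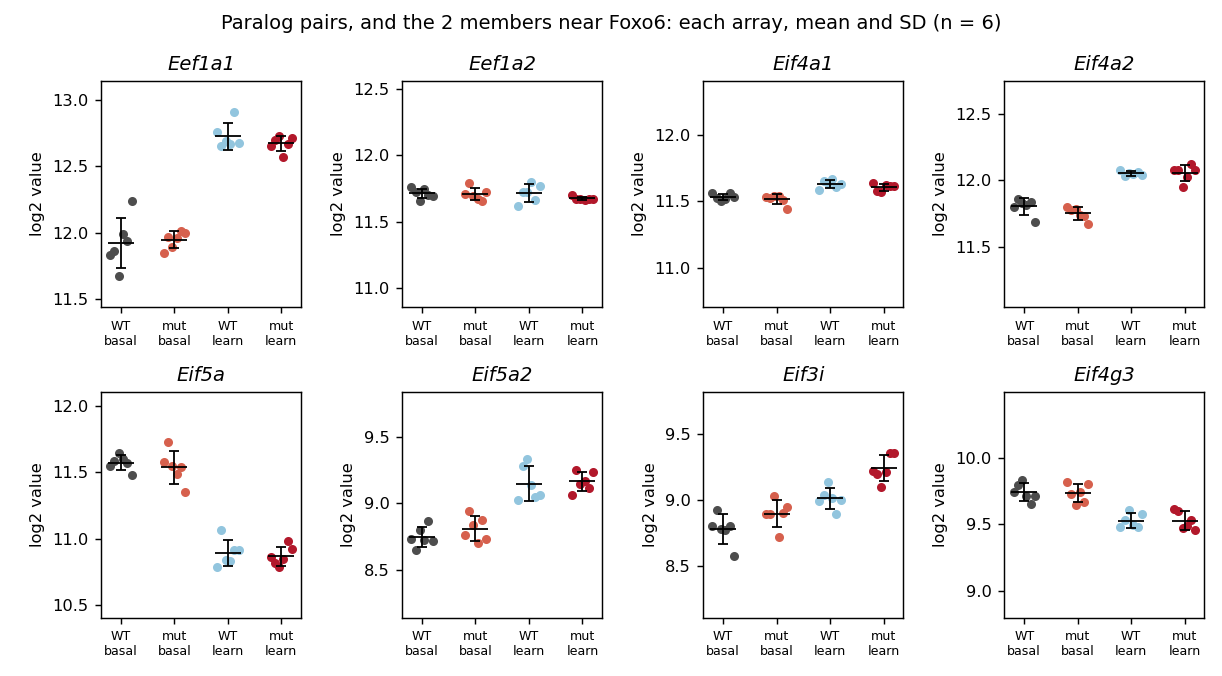
Log2 value on every array, with mean and SD (n = 6), of the paralogs Eef1a1 and Eef1a2, Eif4a1 and Eif4a2, Eif5a and Eif5a2, and of Eif3i and Eif4g3, which lie near Foxo6. Eef1a1 rises after learning while Eef1a2 stays between 11.62 and 11.80, and Eif5a falls while Eif5a2 rises; probes of different genes share no common scale of level.

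Eef2, the translocase, fell. It lay between 11.65 and 11.74 (median 11.72) on WT basal and between 11.15 and 11.28 (median 11.25) on WT learning arrays, and between 11.63 and 11.82 (median 11.69), then between 11.17 and 11.25 (median 11.21) on mutant arrays. No learning array reached a basal one, and the difference was −0.48 (SE 0.03, adjusted p 3.19e-13) in WT and −0.49 (adjusted p 2.08e-13) in the mutant. Eef2k, the kinase that inhibits eEF2, fell by 0.18 in WT (adjusted p 0.0109) and gave −0.14 in the mutant (adjusted p 0.0504). A second, slightly dimmer Eef2k probe gave −0.13 and −0.15, not called in either genotype (limma p adjusted over all probes, 0.179 and 0.122). Among methyltransferases of elongation factors, Eef1akmt1, which acts on a lysine of eEF1A, rose by 0.69 and 0.68. Eef1aknmt, which methylates the start and a lysine of eEF1A, fell: WT arrays went from 7.19 to 7.53 (median 7.33) at basal to 6.95 to 7.24 (median 7.04), and mutant arrays from 7.23 to 7.50 (median 7.30) to 6.87 to 7.15 (median 6.98). The states overlapped in WT and not in the mutant, with differences of −0.27 (SE 0.07, adjusted p 0.00178) and −0.33 (adjusted p 0.000217). Eef2kmt, Eef1akmt2 and Eef1akmt3 were not called in either genotype. Eif4a3l1, a copy of Eif4a3 with a mean below every array median, gave 0.04 in WT and rose by 0.25 in the mutant.

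Some values above rest on a doubtful probe. For 6 members (Eif3m, Eif5a, Eif4a1, Eif2s2, Eif4e and Eif4e1b) the probe with the highest mean is numbered among probes of another chromosome, while another probe is numbered with the gene's own; 95.2% of 1000 sampled probes are numbered with their own. The second probe gave 0.87 and 0.72 for Eif3m in WT and mutant, 0.21 and 0.19 for Eif4a1, 0.47 and 0.31 for Eif2s2 (adjusted over all probes, limma p 2.56e-05 and 0.00245, so it passed in both genotypes), and −0.34 and −0.30 for Eif4e1b, the same direction as the probe used. With those probes 38 members were called in WT and 39 in the mutant. Eif2s3y, which is Y-linked, has no second probe, and 13 of the 20 neighbouring probes read for it were of the X chromosome. Whether that makes its probe doubtful was not tested.

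The promoters of 7 of the 8 members with the 4 largest called rises and 4 largest called falls are shown because they let a reader compare the start regions of members that rose with those that fell; Eif5a has 6 annotated starts and is left out. Each line runs 5′ to 3′ from 100 bases before to 20 bases after the RefSeq start in GRCm38.p6. Capitals mark matches, on either strand, to TGACGTCA (the cAMP response element, CRE), its core TGACG, which overlaps it, CACGTG (an E-box, which also overlaps that core in Eef2), GTAAACA (a FoxO site), CCGGAAG (an ETS site), or a run of at least 5 pyrimidines that begins with C within 10 bases of the start; a match that runs past the end of a line is in capitals up to that end. The first 4 belong to members that rose, Eef1a1 (chr9:78481705-78481824, minus strand), Eef1e1 (chr13:38659009-38659128, minus), Eif3m (chr2:105017008-105017127, minus) and Eif1b (chr9:120492506-120492625, plus), and the last 3 to members that fell, Eef2 (chr10:81176531-81176650, plus), Eif2b2 (chr12:85219381-85219500, plus) and Eef1aknmt (chr1:162548326-162548445, minus).
Eef1a1: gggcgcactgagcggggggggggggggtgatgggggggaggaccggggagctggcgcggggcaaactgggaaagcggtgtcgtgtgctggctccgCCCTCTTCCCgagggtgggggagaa
Eef1e1: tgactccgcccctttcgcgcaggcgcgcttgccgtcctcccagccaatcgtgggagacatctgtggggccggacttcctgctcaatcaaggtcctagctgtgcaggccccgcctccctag
Eif3m: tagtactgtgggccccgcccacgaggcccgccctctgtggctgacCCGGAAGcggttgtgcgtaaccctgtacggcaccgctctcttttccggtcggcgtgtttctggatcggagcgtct
Eif1b: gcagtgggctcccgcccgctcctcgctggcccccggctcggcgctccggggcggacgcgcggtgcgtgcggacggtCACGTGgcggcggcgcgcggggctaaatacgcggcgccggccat
Eef2: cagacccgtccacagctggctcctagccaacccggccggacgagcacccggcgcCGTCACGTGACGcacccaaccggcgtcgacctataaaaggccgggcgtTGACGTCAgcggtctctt
Eif2b2: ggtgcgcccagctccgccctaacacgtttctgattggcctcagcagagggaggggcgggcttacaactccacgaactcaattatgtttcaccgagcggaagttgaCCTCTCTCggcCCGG
Eef1aknmt: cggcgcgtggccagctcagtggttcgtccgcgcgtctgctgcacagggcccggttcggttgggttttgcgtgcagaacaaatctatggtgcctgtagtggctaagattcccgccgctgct
Eef2 was the only member of 47 with an annotated window to hold the full CRE, which begins 3 bases after its start. Its E-box begins at position −43 from that start and overlaps the TGACG core at both ends, on opposite strands, with the cores beginning at −46 and −39. Eif1b, a member that rose, has an E-box that begins at position −24. Over windows from 250 bases before to 50 after the start, the full CRE was in 2.1% of member genes and 2.0% of all 27025 genes, and the FoxO site in 2.1% (Eif2s3y alone) and 4.1%. The TGACG core was in 46.8% of member genes against 23.0% of all, the E-box in 25.5% against 8.1%, the ETS site in 31.9% against 9.9%, and the pyrimidine run in 38.3% against 34.4%. Member windows were richer in G and C, at a median of 61.8% against 52.7%, and no share was corrected for it. The TGACG core was in 50% of the members higher in both genotypes and 50% of those lower in both, so it did not separate the directions. The pyrimidine run was in 22.2% of the members higher and 50% of those lower, or 4 of 18 and 5 of 10 genes. A gene counted if any of its windows matched. The 18 higher genes had 18 windows, and the 10 lower genes had 19, so the lower genes had more chances of a match. By window the run was in 22.2% of the higher and 42.1% of the lower. The E-box was in 27.8% and 31.6% of these windows, and the ETS site in 38.9% and 21.1%. These splits were not tested.

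Both genotypes gave nearly the same list. After learning 34 members were called in the same direction in WT and mutant (22 higher, 12 lower) and 0 in opposite directions. That is 91.9% of the WT calls and 87.2% of the mutant calls, against 80% and 84% for all genes. Among all 19938 genes 6910 were called in the same direction (3785 higher, 3125 lower) and 3 in opposite directions. Eef2k, Eif2a and Eif2s2 passed in WT alone, and Eif2ak3, Eif2b5, Eif3h, Eif4a3l1 and Eif4e in the mutant alone. With the second probe of each, Eif2s2 passed in both genotypes and Eef2k in neither. Across the 58 members the differences in WT and in the mutant, which come from separate arrays, correlated at r = 0.978 (Spearman's rho 0.968), and at 0.921 (0.885) across all genes. Members are not independent replicates, and this describes likeness only. The largest gap between the genotypes was 0.21, for Eif4a3l1.

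**Figure D4:**
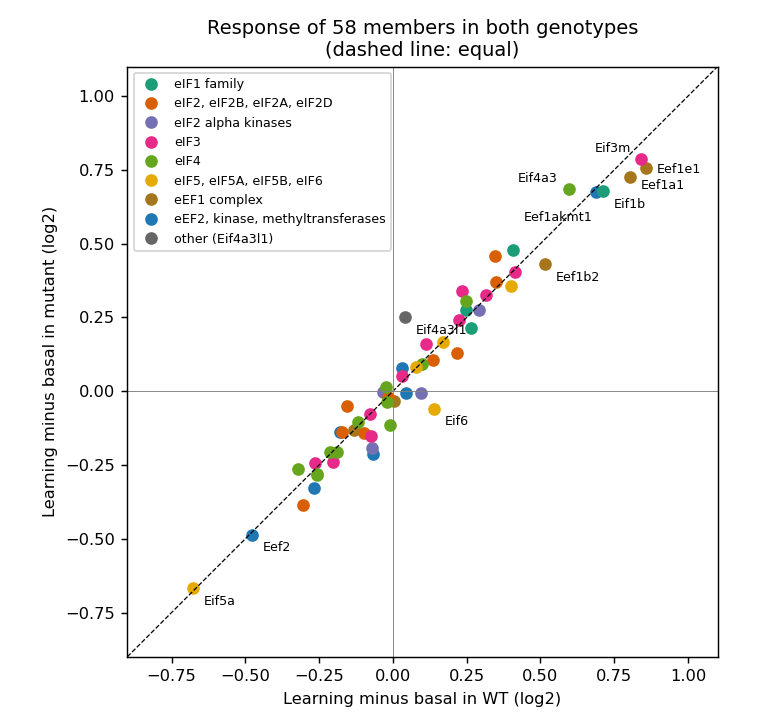
Learning minus basal difference (log2) of each member in WT (horizontal) against the mutant (vertical), coloured by role; the dashed line marks equal differences. Points follow the line from Eif5a at −0.68 and −0.67 to Eif3m and Eef1e1 at the upper right, and Eif4a3l1 and Eif6 lie furthest from it.

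The interaction of genotype and state, which tests those gaps, called 0 of the 58 members and 0 of all genes (0%); 1 member and 510 genes had an unadjusted limma p under 0.05. That member was Eif6, with a response lower in the mutant by 0.20 (95% interval −0.37 to −0.03, unadjusted p 0.026, adjusted p 1). Eif4a3l1 gave 0.21 (−0.01 to 0.43). The calls in a single genotype listed above are therefore not shown to differ between the genotypes. The median member's interval, not adjusted for the number of genes, ran 0.15 to each side, and differences of size 0.20 and 0.21 were not called. Differences of response of that size or smaller could therefore be missed with these arrays, and larger ones too. Member intervals reached −0.40 and 0.44, and over all genes the largest gap between the genotypes, 1.375, was not called.

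Between the genotypes, 0 members were called at basal (0.1% of all genes) and 0 after learning (0.0752%). At an unadjusted limma p under 0.05 there was 1 member in each state, against 4.5% and 7.33% of all genes. Member differences ran from −0.21 (Eif2s3y) to 0.12 (Eif3i) at basal and from −0.11 (Eif6) to 0.23 (Eif3i) after learning, and the median interval was 0.11 to each side. Averaged over both states Eif3i was the 1 member called (0.391% of all genes). It lay between 8.58 and 8.93 (median 8.79) on WT basal, 8.73 and 9.03 (median 8.90) on mutant basal, 8.90 and 9.14 (median 9.01) on WT learning, and 9.10 and 9.35 (median 9.21) on mutant learning arrays. The genotypes overlapped in each state. The averaged difference was 0.17 (SE 0.04, 95% interval 0.09 to 0.25, adjusted p 0.0369), with 0.12 at basal (adjusted p 1) and 0.23 after learning (adjusted p 0.19). The call held in 5 of 24 runs that left out 1 array (those without WT basal 2, mutant basal 4, WT learning 3, mutant learning 2 or mutant learning 3; adjusted p from 0.0139 to 0.0835 over all 24). With the choroid plexus markers as a covariate the difference was 0.15 (adjusted p 0.243); over all alternatives the adjusted p ran from 0.0126 to 0.243. Eif3i lies 9.3 Mb from Foxo6 on the same chromosome; the part of that position in its difference was not tested. Eif4g3, the other member within 20 Mb of Foxo6 (17.7 Mb), gave −0.003 (adjusted p 0.986).

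**Figure D5:**
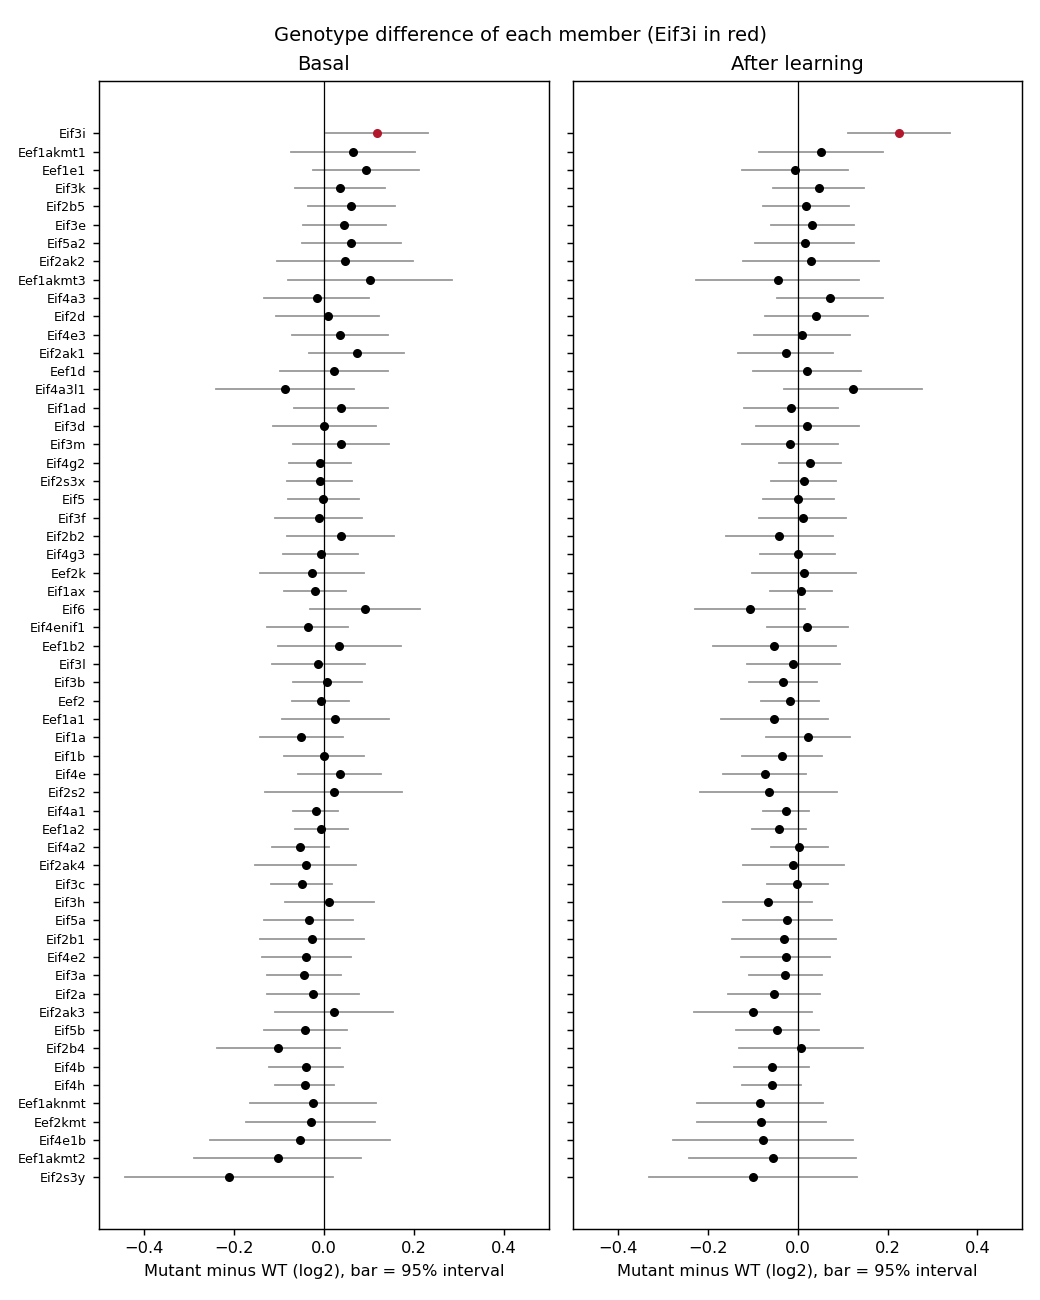
Mutant minus WT difference (log2) of each member with its 95% confidence interval, at basal (left) and after learning (right), ordered by the average of both states. Nearly all intervals cross 0; that of Eif3i, in red, lies above 0 in both states, at 0.12 and 0.23.

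Genes that act on these factors also moved both ways after learning. Of 26 measured regulators of initiation, 8 were higher and 11 lower in WT, and 8 and 12 in the mutant. Among all genes 25.1% were higher and 18.2% lower in WT, and 22.6% and 18.7% in the mutant. Rptor, the adaptor of mTORC1, fell by 0.57 in WT and 0.63 in the mutant, Larp1, which binds mRNAs of the translation machinery, by 0.54 and 0.73, Mknk1, a kinase of eIF4E, by 0.54 and 0.61, and Mtor by 0.36 and 0.36. Tsc2, an inhibitor of mTORC1, fell as well, by 0.36 and 0.47. Paip1, which stimulates translation through the poly(A)-binding protein, rose by 0.51 and 0.48, and Paip2, which inhibits that protein, by 0.47 and 0.49. The hypusine enzymes of eIF5A parted: Dhps rose by 0.44 and 0.46, and Dohh fell by 0.13 and 0.19. Eif4ebp1 was not called in either genotype (0.10 and 0.00).

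Of 19 genes known to answer to eIF2 phosphorylation, 3 were higher and 2 lower in WT and 4 and 2 in the mutant. Beside this count and those below, 25.1% of all genes were higher and 18.2% lower in WT. The mutant shares of all genes were 22.6% and 18.7%. Ddit4, an inhibitor of mTORC1, rose by 0.76 and 0.85, Cebpb by 0.59 and 0.66 and Atf3 by 0.37 and 0.21; all are transcribed under other signals too. Phgdh, of serine synthesis, fell by 0.46 and 0.46. Atf4, Ddit3, Asns and Trib3 were not called, with WT differences between −0.06 and 0.11. Of 6 factors that end translation and recycle ribosomes, 4 rose in each genotype, with Abce1, which splits ribosomes, up by 0.40 and 0.42, and Gspt1 fell by 0.11 and 0.10. Mitochondrial translation factors were higher in 6 of 10 in WT and 7 of 10 in the mutant, with 0 lower, such as Tsfm (0.58 and 0.67) and Gfm1 (0.39 and 0.34). Cytosolic ribosomal proteins, 61 genes, were higher in 25 and lower in 7 in WT, and in 30 and 9 in the mutant.

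Some markers of cell types were called after learning too. For comparison, 25.1% of all genes were higher and 18.2% lower in WT, and 22.6% and 18.7% in the mutant. Of 8 astrocyte markers 5 fell and 1 rose in WT, and 6 fell in the mutant, with array means of 10.41 to 10.60 at basal and 10.28 to 10.46 after learning. Of 15 choroid plexus markers 1 fell in WT and 5 in the mutant, and of 6 markers of endothelium and blood 2 and 3. Of 8 interneuron markers 4 rose and 3 fell in WT, and 3 and 3 in the mutant. Of 7 microglia markers 3 rose and 1 fell in WT, and 2 and 1 in the mutant, and of 7 oligodendrocyte markers 2 and 2, and 3 and 2. Among 11 markers of hippocampal neurons 2 rose and 4 fell in WT, and 1 and 4 in the mutant. Probes without a gene symbol were called at 20.7% in WT and 20% in the mutant, against 40.7% and 38.8% of those with 1 symbol. The part of the cell markers in the members' values was not tested beyond the choroid plexus. With its markers as a covariate 35 members were called in WT and 38 in the mutant, and without WT basal arrays 4, 5 and 6, whose mean of these markers was 5.97, 6.18 and 6.09 against 6.64 to 6.93 on the other WT basal arrays, 34 (20 higher) and 38. In bulk tissue fewer cells of a type and less RNA per cell cannot be told apart.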

How the data were processed

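RNA of 24 hippocampus samples, 6 in each of 4 groups taken from the labels, was measured on Affymetrix Mouse Gene 1.0 ST arrays. Per the submitters' processing notes the authors ran RMA, and the deposited values are on a log2 scale. RMA corrects the background, equalises the quantiles of the arrays and summarises the probes of a transcript, so differences are relative to the bulk of genes. The chip definition, scan dates and version of RMA were not given in the sources used here. Array medians lay between 6.16 and 6.30, and arrays of a group correlated at 0.991 to 0.997.

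Gene symbols came from GEO's platform annotation. Probes with several symbols or none stayed out, and the probe with the highest mean was kept per gene, which gave 19938 genes from 35511 probes. One linear model with a mean per group was fitted in R 4.3.3 with limma 3.58.1 (eBayes with a mean-variance trend, 20 residual and 29.0 total degrees of freedom). P values are two-sided, with the Benjamini-Hochberg adjustment across the 19938 genes. Intervals are 95% intervals. The labels call the arrays biological replicates without saying that each is a separate mouse, so a p-value reflects only how these samples vary, which may be technical. Members share arrays and are not replicates of a condition.

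The members, role lists, pathway lists and marker lists were chosen with earlier results of these data known. Named genes were, in each learning comparison, the 10 called members with the largest rise and the 10 with the largest fall; members called between genotypes or, where fewer than 5 were called, the 5 with the smallest p; fixed paralogs and kinases; and members within 20 Mb of Foxo6. Values by array are given for the 4 largest rises and falls, for members called between genotypes and for the Eef1a and Eif4a pairs. Other members, and genes of the pathway lists, were named to complete their groups after their values were seen. Promoter sequences are RefSeq's, for 47 of 58 members with 62 windows. Alternatives covered normalization, probe choice, filters, model and left-out arrays. What a replicate number marks is not given in the labels. Deviations from the group means of same-numbered arrays in different groups correlated at −0.30 to 0.45, highest between mutant basal and WT learning. These correlations cannot show whether a number marks a shared litter or day.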

Additional observations from a re-analysis of the deposited data

Results flagged for a closer look

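One probe outside the comparisons of genes changed far more than any member. It is annotated to Mir703, Eef1a1 and D630045J12Rik together, so its signal cannot be given to 1 gene. It stood between 8.53 and 9.00 (median 8.63) on WT basal and between 11.10 and 11.50 (median 11.17) on WT learning arrays, and between 8.13 and 9.11 (median 8.73), then between 10.84 and 11.37 (median 11.27) in the mutant. The states lay fully apart, by 2.54 in WT (limma, adjusted over all probes, p 2.33e-13) and 2.47 in the mutant, against 0.80 and 0.73 for the probe of Eef1a1 alone. Which transcript it reads was not tested.

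Other probes shared by several genes rose too. A probe of Eif3j1 and Eif3j2 rose by 0.23 (WT) and 0.18 (mutant), and a second one by 0.20 in WT, with 0.15 in the mutant (adjusted p 0.0599). The 2 probes shared by Eif4a3 and Eif4a3l1 rose by 0.18 and 0.20 in WT. The 4 probes shared by Eif1a and its near-identical gene models rose by 0.31, 0.45, 0.32 and 0.41 in WT.

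A single array stood apart from the other 5 of its group in 20 of 232 sets of a member and a group, by Dixon's test, where chance gives about 1 in 20. WT basal array 6 accounts for 5 of them, with Eef1akmt1 at 7.30, Eif1b at 10.13, Eif3l at 8.89 and Eif4a2 at 11.68 as the lowest, and Eif3m at 9.74 as the highest. Mutant basal array 6 was lowest for Eif2s2 (8.40), Eif4a1 (11.44) and Eif4e3 (8.83). Mutant learning array 3 was lowest for Eif3l (8.81), Eif4a3 (8.48) and Eif4b (9.72). WT learning array 2 was highest for Eef1akmt1 (8.48), Eif4e (11.08) and Eif5b (9.06). Array 5 was lowest for Eef1b2 (8.69) and Eif4g2 (10.94) in WT learning, and stood at 11.16 for Eif4g2 in mutant learning. The remaining values were Eif3a at 10.56 on WT learning array 4, Eif5 at 10.39 on WT learning array 1 and Eef1a2 at 11.70 on mutant learning array 1.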

How the results depend on the processing

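Over 14 other settings the members called higher after learning numbered 20 to 25 in WT and 20 to 24 in the mutant, and those called lower 10 to 17 and 11 to 20. Without 1 array each they numbered 23 to 25 and 12 to 15 in WT, and 23 to 25 and 14 to 16 in the mutant. Of the 37 WT calls 31 held in every run without 1 array and in 12 of these settings (all but the minimum difference and dim genes left out), and of the 39 mutant calls 32.

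Calls lost when 1 array was left out were, in WT, Eif2a (learning 3 or 6; adjusted p up to 0.0584), Eif2s2 (learning 2; 0.0526) and Eif4e1b (basal 5 or 6, learning 1, 2 or 6; 0.106). In the mutant they were Eif2ak3 (basal 2 or learning 1; 0.0541), Eif2b5 (learning 3; 0.0564), Eif2d (basal 1, 2, 4 or 6, learning 1, 3, 4 or 6; 0.131), Eif4e (basal 1, 2 or 5, learning 1, 2, 3 or 6; 0.129) and Eif4e1b (basal 5 or 6, learning 2 or 5; 0.0762).

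Calls lost under those 12 settings were, in WT, Eif2a (second quantile normalization, both choroid plexus settings), Eif2d (median centring), Eif2s2, Eif2s3y and Eif3c (arrays low in choroid plexus left out) and Eif4e1b (6 settings). In the mutant they were Eif2ak3 and Eif3h (median centring), Eif2b5 (3 settings), Eif2d (5), Eif4a1 (second quantile normalization), Eif4e (6) and Eif4e1b (choroid plexus covariate).

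The 1 member called between genotypes over both states, Eif3i, became 0 under median centring, every probe, the replicate block, no trend, a minimum difference of 0.2, the choroid plexus covariate, arrays low in choroid plexus left out, and the 3 extreme arrays left out (this last, and the probe by chromosome, were chosen after seeing the data); runs without 1 array gave 0 to 1. Without the 3 extreme arrays Eif3i was instead called after learning, which made 1 member there (0.25, adjusted p 0.0368). The replicate block, which uses numbers whose meaning the labels do not give, gave 37 calls in WT and 40 in the mutant.

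Among the named values, signs turned for differences near 0 and for Eif4e. Eef1a2 in WT gave −0.012 after a second quantile normalization. Eif4e in WT gave 0.027 under median centring, 0.051 with the mean of probes, 0.016 without arrays low in choroid plexus and 0.218 with the probe by chromosome, which gave 0.148 in the mutant. Eif4g2 gave 0.013 in WT under median centring, and in the mutant −0.022 after a second quantile normalization and −0.001 without the 3 extreme arrays. Eif2ak4 gave 0.002 in WT and 0.015 in the mutant under median centring, and 0.010 in the mutant after a second quantile normalization. Eif2ak1 in the mutant gave 0.012 under median centring, 0.001 with array weights and 0.016 without the 3 extreme arrays. Runs without 1 array ranged from −0.012 to 0.023 for Eef1a2, −0.041 to 0.003 for Eif4e and −0.043 to 0.004 for Eif4g2 in WT. In the mutant they ranged from −0.005 to 0.024 for Eif4g2, −0.030 to 0.026 for Eif2ak1 and −0.021 to 0.022 for Eif2ak4, and between genotypes from −0.012 to 0.006 for Eif4g3. The cause was not tested. Signal near background limits Eif2ak2, Eif4e1b, Eef1akmt3 and Eif4a3l1.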
